A study of Mus musculus with 7 samples.

Results

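Potassium channels are membrane proteins that let potassium ions leave or enter a cell and so set its resting voltage and shape its electrical signals. The genes described here are the mouse genes whose symbol is Kcn, one letter and a number, and 80 of the 24354 gene symbols in the deposited table met that rule. Of these, 30 encode pore subunits of voltage-gated channels, which open when the membrane depolarises. Another 15 encode inward rectifiers (the Kcnj genes), which hold the resting voltage and take up or release potassium, and 14 encode two-pore channels (the Kcnk genes), which carry a steady leak current. The calcium-activated channels of small (Kcnn1 to Kcnn3) and intermediate (Kcnn4) conductance numbered 4, the sodium-activated channels (Kcnt1 and Kcnt2) numbered 2, and the sperm channel gene Kcnu1 completed the pore genes. The naming rule also took in genes that make no pore of their own: 10 silent modifiers (Kcnf, Kcng, Kcns and Kcnv genes), which work only in mixed channels with other voltage-gated subunits, and 4 accessory Kcne genes. Kcnma1, the pore gene of the large-conductance calcium-activated channel, has a two-letter family name and lies outside the rule.

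In neural tissue the best known roles are divided between cell types. Kcnj10 encodes the inward rectifier by which glial cells clear potassium released by active neurons, and Kcnj16 encodes a subunit that assembles with it. Kcnc genes encode fast delayed rectifiers of rapidly firing neurons, and Kcnd genes encode the A-type channels that delay firing.

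RNA sequencing had measured transcript levels in 7 libraries. One was from mouse embryonic fibroblasts (MEF) taken at embryonic day 13.5 from embryos without head and internal organs, which carried Oct4-CreER and Rosa26-loxSTOPlox-EYFP on a C57BL/6-Pou5f1 x 129X1/SvJ background. One was from control neural stem cells (cNSC) of the cerebral cortex of OG2/ROSA26 embryos of the same age. The other 5 were induced neural stem cells (iNSC), which are fibroblasts infected with viral reprogramming factors and grown in neural stem cell medium. Of these, pOKSM, pBKSM and clones 1 and 3 of mcBKSM came from the MEF genotype, and the DTA line came from Oct4-CreER x Rosa26-loxSTOPlox-DTA fibroblasts of a strain labelled Unknown. The labels give embryonic day 13.5 as the age for all 7 libraries. The growth protocol names polycistronic and monocistronic vectors, to which the p and mc of the names presumably refer. In this study's usage, not spelled out in the labels, the factor letters stand for Oct4 (O), Brn4 (B), Klf4 (K), Sox2 (S) and Myc (M). Pou3f4, the Brn4 gene, was listed at 0 FPKM in both clones, so the libraries labelled mcBKSM carry that label as a name. It was 19.99 FPKM in pBKSM, but also 24.1 in DTA and 27.2 in cNSC, so its level does not check the B of pBKSM. Per the labels, each library was made from a pool of 2 to 3 biological replicates. Only mcBKSM had more than 1 library, so values have no replicate error within a line. The cNSC strain and genotype differed by label from those of MEF, pOKSM, pBKSM and the clones, and the strain of DTA is not known, so strain and cell type cannot be told apart in comparisons with cNSC.

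Levels are in FPKM (fragments per kilobase of transcript and library size, scaled between libraries), which may be compared between genes. The estimated depth ran from 11.6 M fragments in pBKSM to 17.4 M in DTA, and 3 fragments on a transcript of 2 kb corresponded to 0.0958 FPKM in DTA and 0.144 FPKM in pBKSM. A value of that size or smaller is at the limit of detection, which covers counting error only. Identity markers were compared with the labels. Of 10 neural stem cell markers, 9 or 10 reached 1 FPKM in cNSC and each iNSC library and 3 did in MEF, whereas 7 of 8 fibroblast markers reached 1 FPKM in MEF and 1 or 2 did in the others. Endothelial markers summed to at most 1.82 FPKM in any library. The bulk values do not tell fewer cells of a type from less RNA per cell.

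The promoters of 4 genes that the results below turn on are shown first, to let the reader see the sequences behind a fast delayed rectifier (Kcnc1), an A-type channel (Kcnd3), the glial rectifier (Kcnj10) and a G protein-gated rectifier (Kcnj3). Each runs 5′ to 3′ from 250 bases before to 50 bases after the RefSeq start (GRCm38.p6, all on the + strand), and the genes were picked after their values were seen. Capitals mark matches, on either strand, to any of 6 motifs. The SOX factor motif was searched as ACAATG and in its other common form as ACAAAG. The POU factor octamer was searched as ATGCAAAT. The E-box bound by Myc was searched as CACGTG. The box of Kruppel-like factors was searched as CCACCC. The left part of the RE1 element was searched as TTCAGCACC.
Kcnc1 (chr7:46396218-46396517): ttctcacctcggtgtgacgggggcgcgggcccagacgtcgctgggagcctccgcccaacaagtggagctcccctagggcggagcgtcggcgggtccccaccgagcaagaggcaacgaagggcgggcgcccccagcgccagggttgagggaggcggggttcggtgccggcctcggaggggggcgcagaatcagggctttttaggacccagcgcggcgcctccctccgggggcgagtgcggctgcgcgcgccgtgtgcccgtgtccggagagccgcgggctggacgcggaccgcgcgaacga
Kcnd3 (chr3:105451640-105451939): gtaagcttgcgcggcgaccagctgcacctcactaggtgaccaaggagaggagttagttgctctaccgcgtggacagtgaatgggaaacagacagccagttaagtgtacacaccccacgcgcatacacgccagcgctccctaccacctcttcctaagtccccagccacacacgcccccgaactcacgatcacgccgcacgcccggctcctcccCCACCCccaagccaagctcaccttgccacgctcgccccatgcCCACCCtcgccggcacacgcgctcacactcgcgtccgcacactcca
Kcnj10 (chr1:172340960-172341259): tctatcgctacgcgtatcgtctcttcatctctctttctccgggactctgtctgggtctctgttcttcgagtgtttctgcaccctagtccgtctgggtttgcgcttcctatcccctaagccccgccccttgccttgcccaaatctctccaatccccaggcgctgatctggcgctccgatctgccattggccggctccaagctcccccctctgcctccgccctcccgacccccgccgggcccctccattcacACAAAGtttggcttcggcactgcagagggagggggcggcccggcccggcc
Kcnj3 (chr2:55435720-55436019): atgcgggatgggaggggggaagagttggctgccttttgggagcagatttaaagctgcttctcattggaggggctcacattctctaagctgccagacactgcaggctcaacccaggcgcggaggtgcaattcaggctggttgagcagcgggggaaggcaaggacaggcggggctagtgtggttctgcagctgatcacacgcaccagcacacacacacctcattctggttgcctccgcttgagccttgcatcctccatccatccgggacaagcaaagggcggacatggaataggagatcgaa
The Kcnd3 window held 2 CACCC boxes and the Kcnj10 window held 1 SOX motif (ACAAAG), and the Kcnc1 and Kcnj3 windows held no match. Among the first listed promoters of 27025 genes, CCACCC occurred in 30.9% and ACAAAG in 18.7%. Promoters were matched for 56 of the 80 potassium channel genes, and 34 of them (60.7%) held CCACCC while 6 (10.7%) held ACAAAG. The windows of the potassium channel genes were richer in G and C, with a median of 59.0% against 52.7% over all promoters, and CG dinucleotides numbered 41 in Kcnc1, 25 in Kcnd3, 21 in Kcnj10 and 10 in Kcnj3, against a median of 7 over all promoters and of 10 over the potassium channel genes matched. A match is a description of the letters and no sign of binding.

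Most potassium channel genes were at low levels or listed at 0. Of the 80 genes, 6 were listed at 0 in every library (Kcna10, Kcnb2, Kcnj6, Kcnk9, Kcnk16 and Kcnk18), 45 stayed above 0 but under 1 FPKM, and 29 (36.3%) reached 1 FPKM in at least 1 library, against 53.6% of all genes in the table. Only 11 reached 5 FPKM. The 4 Kcne genes peaked at 0.115 FPKM and the silent modifiers other than Kcnf1 and Kcng1 also stayed under 1 FPKM. The 29 genes at or above 1 FPKM are those tested below. Because a gene could pass this filter through the group in which it was high, counts over the 29 are a description of these genes and not of all 80.

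**Figure D1:**
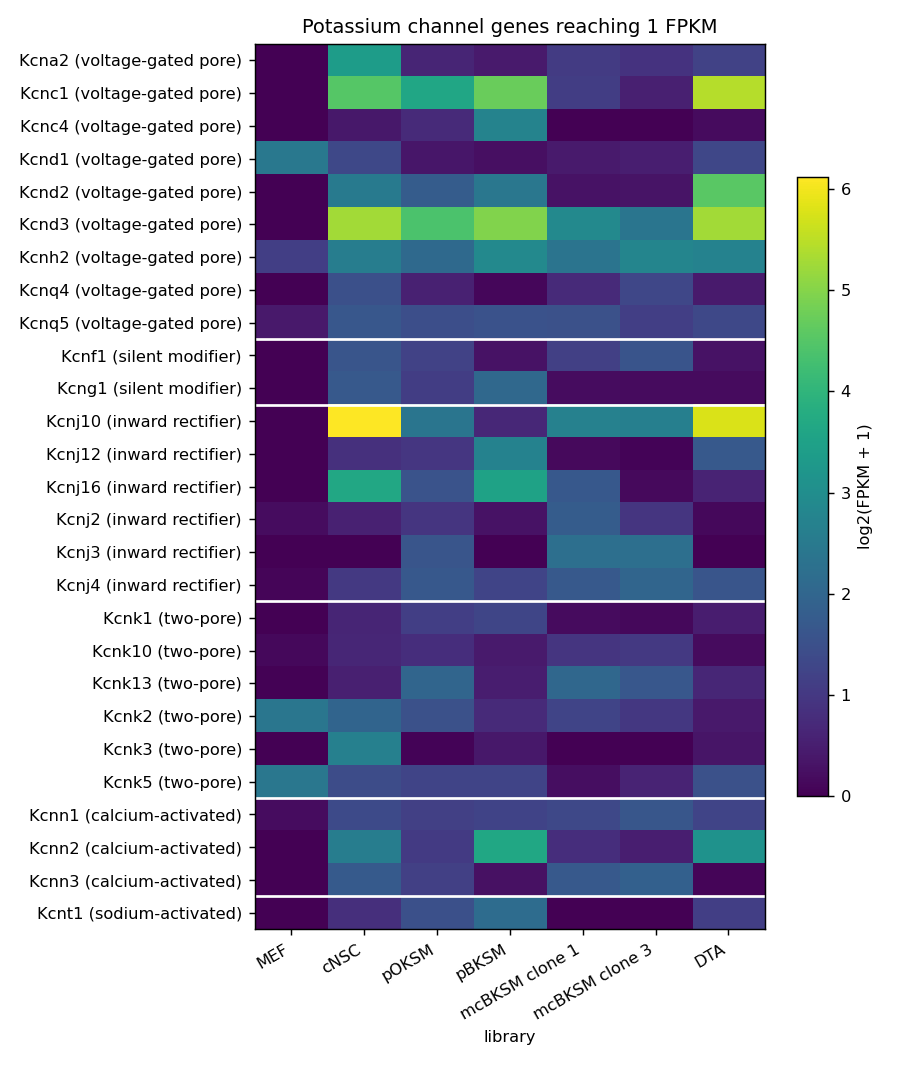
Level of the potassium channel genes reported here that reached 1 FPKM (rows, grouped by channel class) in each of the 7 libraries (columns), coloured by log2(FPKM + 1). The MEF column is dark except for Kcnd1, Kcnk2, Kcnk5 and Kcnh2, and Kcnj10 is brightest in cNSC (68.6 FPKM) and DTA (53.9 FPKM).

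Fibroblasts and neural stem cells differed in how much potassium channel transcript they held and of which class. The 80 genes summed to 17.1 FPKM in MEF and 202.8 in cNSC. The iNSC sums were 195.3 FPKM for DTA, 126.3 for pBKSM, 73.9 for pOKSM and, for the mcBKSM clones, 48.9 (clone 1) and 43.9 (clone 3). Two-pore channels made up the largest class in MEF, with 8.85 FPKM, whereas voltage-gated pores were the largest in the other 6 libraries, from 16.7 FPKM in clone 3 to 120.5 FPKM in DTA. Inward rectifiers summed to 83.8 FPKM in cNSC and 59.3 in DTA, of which Kcnj10 was the larger part, and to between 13.3 and 19.4 FPKM in the other iNSC libraries. In MEF, 55 of the 80 genes (68.75%) were listed at 0, against 23 to 32 in the other libraries (28.75% to 40.0%). Over all genes the share listed at 0 was 40.1% in MEF and 37.2% to 40.0% in the other libraries.

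**Figure D2:**
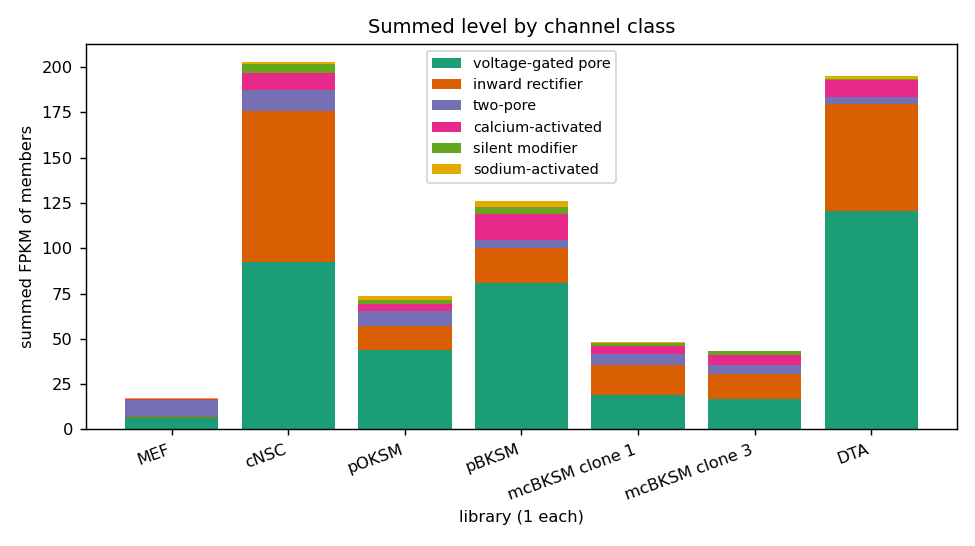
Summed FPKM of the potassium channel genes in each library (bars, 1 library each, no error), split by channel class, without the accessory and pH-activated genes. The bars are tallest in cNSC and DTA (202.8 and 195.3 FPKM with those genes added) and lowest in MEF (17.1).

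The reference libraries were set against each other first, 1 library against 1 and so without a test. Of 21 potassium channel genes that reached 1 FPKM in one or both, 17 were 2-fold or more higher in cNSC and 2 were lower, on the log2(FPKM + 1) scale. Over all genes, 16.3% were higher and 15.5% lower by the same measure (31.8% in all). All 21 genes reached 1 FPKM in cNSC and only 4 did in MEF, so most entered this count through cNSC alone. A lean towards cNSC is thus in part built into the count. The largest differences were Kcnj10 (68.6 FPKM in cNSC, log2 difference 6.12), Kcnd3 (37.6 FPKM, 5.27), Kcnc1 (21.6 FPKM, 4.497), Kcnj16 (11.8 FPKM, 3.68) and Kcna2 (9.47 FPKM, 3.39), each listed at 0 in MEF. The 2 genes higher in MEF were Kcnd1, an A-type channel (4.48 FPKM against 1.51), and Kcnk5, a two-pore channel sensitive to alkaline pH (4.40 against 1.70).

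The 5 iNSC libraries were then tested against MEF with limma in a single fit across 13042 genes, in which 16.3% of genes were called at an adjusted p under 0.05, 6.77% as higher and 9.55% as lower. Clones 1 and 3, both labelled mcBKSM, entered this fit as separate lines, also for the comparison with cNSC below. That label thus has more weight than the others, and the SE may be too small. Of the 29 potassium channel genes, 3 rose and 1 fell. The 3 that rose were expressed at similar, low levels in all 5 lines. Kcnj4, encoding an inward rectifier of the strongly rectifying Kir2 family, was 0.0617 FPKM in MEF and 2.21 in pOKSM, 1.39 in pBKSM, 2.27 and 3.02 in the clones and 2.06 in DTA. MEF lay below all 5 lines, with a log2 difference of 1.57 ± 0.29 (SE, limma adjusted p = 0.0207, 5 lines against 1 library). Kcnn1, encoding a small-conductance calcium-activated channel, had 0.158 FPKM in MEF and a mean of 1.52 ± 0.337 over the lines (SD, n = 5), between 1.25 and 2.10, with a log2 difference of 1.11 ± 0.22 (limma adjusted p = 0.0259). Kcnq5, encoding a subunit of the M-current that restrains firing, had 0.335 FPKM in MEF and a mean of 1.66 ± 0.295 over the lines (SD, n = 5), between 1.21 and 1.94, with a log2 difference of 0.99 ± 0.22 (limma adjusted p = 0.0342). Kcnd1 fell, from 4.48 FPKM in MEF to 0.283 in pOKSM, 0.189 in pBKSM, 0.368 and 0.425 in the clones and 1.46 in DTA, with a log2 difference of -1.88 ± 0.41 (limma adjusted p = 0.0330).

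The genes with the largest mean differences from MEF did not pass the test, and their levels differed widely among the lines. Kcnd3, the A-type channel gene with the highest level among the voltage-gated genes of cNSC, was listed at 0 in MEF. Its level was 20.1 FPKM in pOKSM, 30.1 in pBKSM, 6.38 and 4.23 in the clones and 37.8 in DTA. The clones were lowest and DTA lay beside the 37.6 FPKM of cNSC, and the log2 difference from MEF was 3.98 ± 1.20 (SE, limma adjusted p = 0.0805). Kcnc1 was also listed at 0 in MEF and was 11.3 FPKM in pOKSM, 25.5 in pBKSM, 1.17 and 0.452 in the clones and 42.7 in DTA, a 94.5-fold range among the lines (log2 difference 3.09 ± 2.02, limma adjusted p = 0.346). Kcnj10 was 4.22 FPKM in pOKSM, 0.591 in pBKSM, 5.45 and 5.24 in the clones and 53.9 in DTA, and was listed at 0 in MEF (log2 difference 2.83 ± 1.72, limma adjusted p = 0.313). Only DTA approached the 68.6 FPKM of cNSC in Kcnj10. Kcnh2, encoding the ERG channel of cardiac and neuronal repolarisation, varied 1.95-fold among the lines, from 3.24 to 6.32 FPKM in the lines against 1.22 in MEF and 5.07 in cNSC, and missed the threshold (log2 difference 1.41 ± 0.36, limma adjusted p = 0.0539).

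Over the 29 genes the median log2 difference was 0.99, against 0.03 over all genes tested. MEF lay below all 5 lines in 21 of the 29 and above all 5 in 3 (Kcnd1, Kcnk2 and Kcnk5), against 31.8% and 31.7% of all genes tested. Kcnk2, encoding a mechanically gated two-pore channel, had 4.31 FPKM in MEF and a mean of 1.05 ± 0.609 over the lines (SD, n = 5; limma adjusted p = 0.0822). Kcnk5 had 4.40 FPKM in MEF and a mean of 1.07 ± 0.700 over the lines (SD, n = 5; limma adjusted p = 0.118). Of the potassium channel genes 0 were called without pOKSM, 0 without mcBKSM clone 1, 2 without pBKSM, 3 without clone 3 and 4 without DTA, while calls over all genes went from 2128 to between 1147 and 3193. Without pOKSM the log2 differences moved little, to 1.56 for Kcnj4, 1.15 for Kcnn1, 0.97 for Kcnq5 and -1.83 for Kcnd1. With quantile normalization the 3 rises lost their calls (limma adjusted p = 0.0515 for Kcnj4, 0.141 for Kcnn1 and 0.172 for Kcnq5). Their log2 differences also shrank, to 1.16, 0.66 and 0.57. Kcnd1 kept its call there but lost it in 6 of its 8 alternative fits. Those 6 were a pseudocount of 0.1, no filter, and leaving out pOKSM, pBKSM or either clone. Kcnj4 and Kcnn1 each lost theirs in 3 of 8 and Kcnq5 in 5 of 8.

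**Figure D3:**
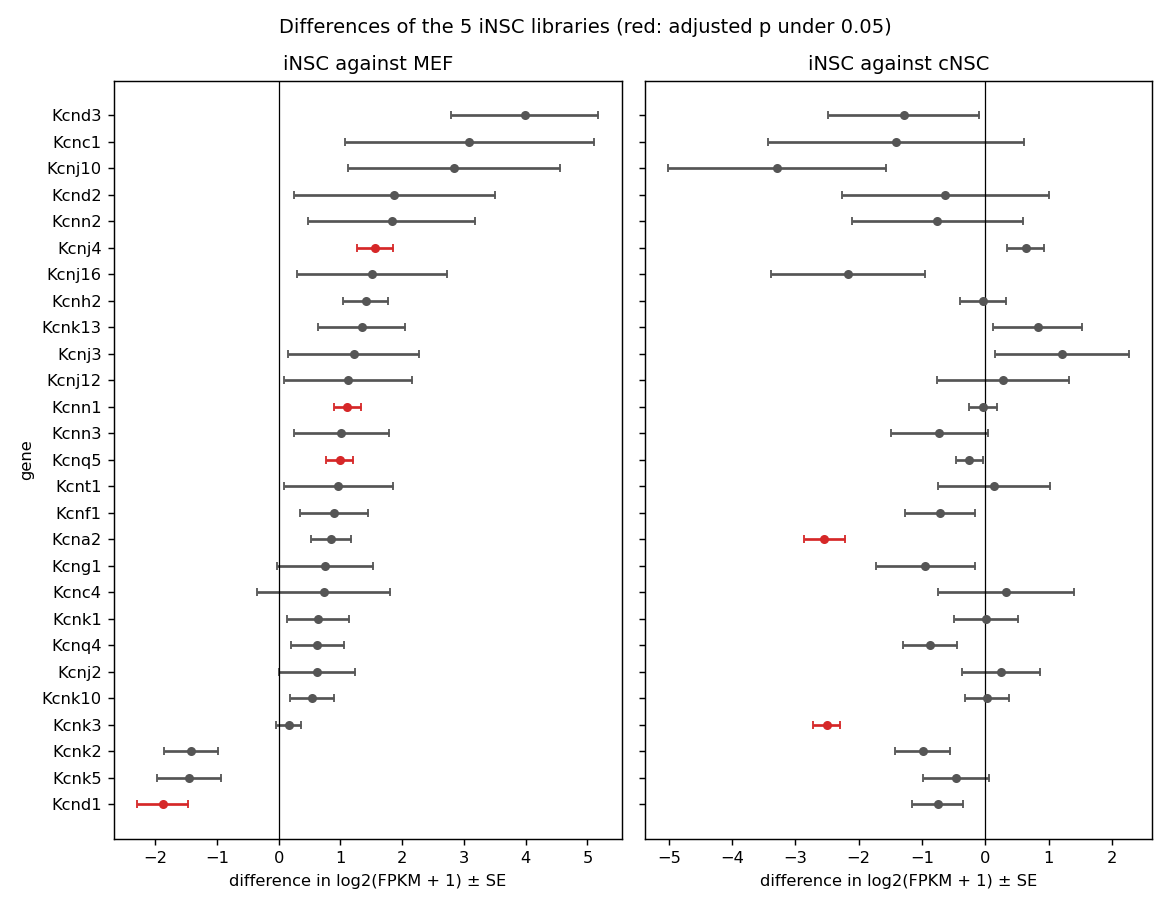
Difference in log2(FPKM + 1) of the 5 iNSC libraries from MEF (left) and from cNSC (right) for the tested potassium channel genes reported here, with SE from limma, and red points for adjusted p under 0.05. Kcnd3, Kcnc1 and Kcnj10 have the largest differences from MEF and wide errors, while the 3 genes called as higher (Kcnj4, Kcnn1 and Kcnq5) have narrow ones.

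Against cNSC, 0 potassium channel genes were higher and 2 were lower in the iNSC libraries, in the limma fit that called 1.17% of all genes (0.207% higher, 0.958% lower). At an unadjusted p under 0.05, 2 of the 29 passed (6.9%), a smaller share than the 13.6% of all genes. Kcnk3, encoding an acid-sensitive two-pore leak channel, was 5.35 FPKM in cNSC and was 0.0437 in pOKSM, 0.307 in pBKSM, 0.272 in DTA and listed at 0 in both clones. All 5 lines lay far below cNSC, with a log2 difference of -2.51 ± 0.21 (SE, limma adjusted p = 0.00766). Kcna2, encoding a Shaker-type delayed rectifier of axons, was 9.47 FPKM in cNSC and 0.550 in pOKSM, 0.354 in pBKSM, 1.08 and 0.853 in the clones and 1.31 in DTA. Its log2 difference was -2.54 ± 0.32 (SE, limma adjusted p = 0.0319), and cNSC again lay above every line. Both genes were listed at 0 in MEF.

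Other genes of high level in cNSC reached it in some lines and not in others. Kcnj16 was 11.8 FPKM in cNSC and 10.6 in pBKSM, but 1.98 in pOKSM, 2.22 and 0.107 in the clones and 0.533 in DTA (limma adjusted p = 0.485). Its usual partner Kcnj10 had the opposite order in pBKSM and DTA, so that the pair was jointly high in cNSC alone. cNSC lay above all 5 lines in 9 of the 29 genes and below all 5 in 1, Kcnj4, against 23.6% and 22.2% of all genes tested. The median absolute log2 difference from cNSC over the 29 genes was 0.31 in pBKSM, 0.43 in DTA, 0.67 in pOKSM, 1.21 in clone 1, 0.99 in clone 3 and 1.36 in MEF. Over all genes tested it was 0.40, 0.28, 0.45, 0.51, 0.51 and 0.57 in the same order. Counted gene by gene, DTA was the line nearest to cNSC in 12 of the 29 genes and pBKSM in 10. The call of Kcnk3 was lost without pOKSM (adjusted p = 0.0566) and with a pseudocount of 0.1 (0.136), and that of Kcna2 also without either clone (0.0960 without clone 1, 0.131 without clone 3, 0.133 without pOKSM). The log2 differences stayed as large, at -2.48 for Kcnk3 without pOKSM and between -2.60 and -2.49 for Kcna2 in those fits. Calls over all genes fell from 152 to 50 without pOKSM, 70 without clone 1 and 59 without clone 3.

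Among the iNSC lines, potassium channel genes were unevenly expressed. The SD of log2(FPKM + 1) over the 5 lines had a median of 0.65 for the 29 genes and 0.31 for all genes tested, and exceeded 1 in 9 of the 29 (31.0%) against 7.12% of all genes. Kcnd2, an A-type channel gene, spanned 97.2-fold, from 0.230 FPKM in clone 1 to 22.3 in DTA, and Kcnj10 spanned 91.1-fold. At the other end Kcnq5 spanned 1.60-fold and Kcnn1 1.67-fold.

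The contrast that the labels define within the lines is pBKSM against the 2 clones labelled mcBKSM, which carry the same factor letters and another prefix. Here limma called 5.82% of all genes, 3.74% as higher and 2.08% as lower in pBKSM, and 10 of the 29 potassium channel genes, 8 higher and 2 lower. The higher genes came from several classes. Among voltage-gated pores, Kcnc4, encoding a fast-inactivating relative of Kcnc1, was 5.63 FPKM in pBKSM and listed at 0 in both clones (log2 difference 2.73 ± 0.04, SE, limma adjusted p = 0.0367). Kcnd2 was 4.36 FPKM against 0.230 and 0.253, with a log2 difference of 2.11 ± 0.09 (adjusted p = 0.0383, limma). The silent modifier gene Kcng1 was 3.17 FPKM against 0.156 and 0.138 (log2 difference 1.86 ± 0.05, limma adjusted p = 0.0367).

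The other genes higher in pBKSM were ion-activated, inwardly rectifying or leak channels. Kcnn2, a small-conductance calcium-activated channel gene, was 11.5 FPKM against 0.751 and 0.433, with a log2 difference of 2.98 ± 0.19 (limma adjusted p = 0.0471). Kcnt1, encoding the sodium-activated channel Slack, was 3.51 FPKM against 0 and 0.0128 (log2 difference 2.16 ± 0.05, limma adjusted p = 0.0367). Kcnj12, encoding an inward rectifier of the Kir2 family, was 5.52 FPKM against 0.110 and 0.0347 (log2 difference 2.60 ± 0.08, limma adjusted p = 0.0367). Kcnk1, a two-pore channel gene, was 1.41 FPKM against 0.126 and 0.104 (log2 difference 1.11 ± 0.04, limma adjusted p = 0.0367). In each of these genes both clones lay near the detection limit or below 1 FPKM.

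The 2 genes lower in pBKSM were inward rectifiers. Kcnj3, whose product forms G protein-gated channels with other Kcnj subunits, was listed at 0 in pBKSM and was 3.69 and 3.70 FPKM in the clones (log2 difference -2.23 ± 0.05, SE, limma adjusted p = 0.0367). It was also listed at 0 in MEF, cNSC and DTA and reached 2.07 FPKM in pOKSM, so it was seen in 3 of the 7 libraries. Kcnj10 was 0.591 FPKM in pBKSM against 5.45 and 5.24 in the clones (log2 difference -1.995 ± 0.14, limma adjusted p = 0.0492).

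In the remaining libraries, cNSC and pOKSM also lay above both clones in 8 of the 8 genes called higher in pBKSM. DTA did in 7, all but Kcng1. Of the 2 genes called lower, cNSC and DTA lay below both clones in 1 (Kcnj3) and pOKSM in 2. Kcnd2 was 4.68 FPKM in cNSC, 2.43 in pOKSM and 22.3 in DTA, and Kcnn2 was 5.01, 1.06 and 7.72. Kcng1 was 2.25 FPKM in cNSC, 1.15 in pOKSM and 0.136 in DTA. Kcnc4 was 0.322 FPKM in cNSC, 0.671 in pOKSM and 0.123 in DTA. Kcnc1 and Kcnd3 showed large differences between pBKSM and the clones without passing (log2 differences 3.90 ± 0.36 and 2.33 ± 0.31, limma adjusted p = 0.0581 and 0.0740). Kcnn3 (0.208 FPKM in pBKSM, 2.26 and 2.68 in the clones) and the two-pore gene Kcnk13 (0.410, 3.12 and 2.17) leaned the other way without passing (limma adjusted p = 0.0521 and 0.0872). This test has 1 residual degree of freedom, from the 2 clones, and pBKSM is assumed to vary as they do. Where both clones lay at or near 0 FPKM, as for Kcnc4 and Kcnt1, their spread in log2(FPKM + 1) is small by construction. The narrow SE of such genes is a floor effect, and they pass more readily than genes such as Kcnc1. The share of 10 of 29 called carries this limit. Neither clone can be left out of the test, and the smallest adjusted p over all genes was 0.0367.

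**Figure D4:**
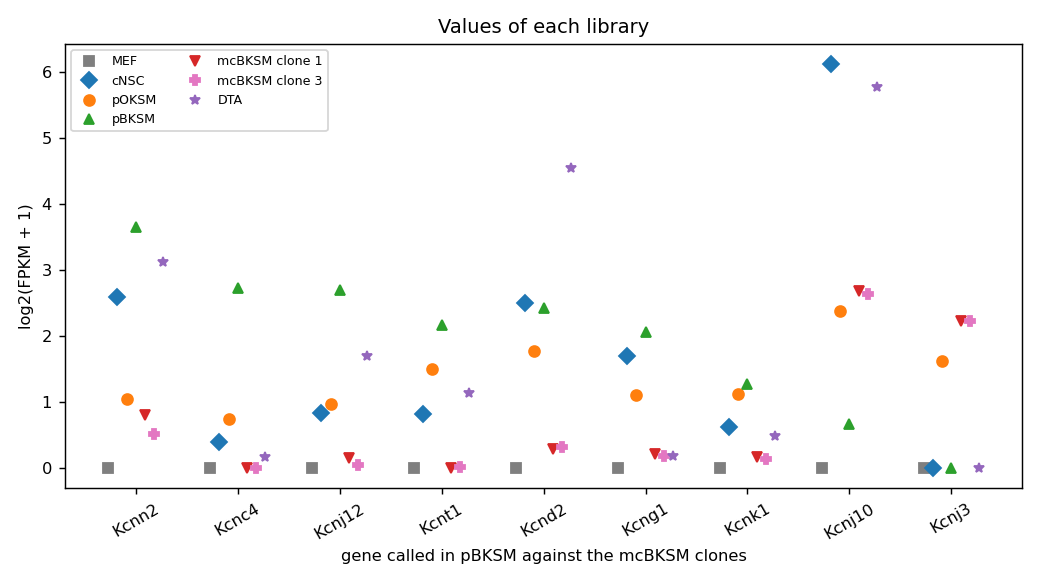
Value of log2(FPKM + 1) in each of the 7 libraries (symbols) for the potassium channel genes reported here that were called in pBKSM against the mcBKSM clones, ordered by the difference. For the genes higher in pBKSM, on the left, the clones lie at or below the level of 0.751 FPKM, and for Kcnj10 and Kcnj3 on the right pBKSM lies below both clones, while 0.751 FPKM is clone 1 in Kcnn2.

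The polycistronic lines differ by label in B against O, and were set side by side without a test. Of 23 genes with at least 1 FPKM in either, 6 were 2-fold or more higher in pBKSM and 3 lower, against 6.32% and 6.44% of all genes (12.8% in all). Kcnn2 (11.5 FPKM in pBKSM, 1.06 in pOKSM), Kcnc4 (5.63, 0.671), Kcnj16 (10.6, 1.98) and Kcnj12 (5.52, 0.970) were among those higher, as was Kcnc1 (25.5, 11.3). Kcnj10 (0.591, 4.22), Kcnj3 (0, 2.07) and Kcnk13 (0.410, 3.01) were lower. Pou5f1, the Oct4 gene, was 0.202 FPKM in pOKSM and listed at 0 in pBKSM, and was 0.398 and 0.187 FPKM in the clones labelled mcBKSM. Pou3f4 was 2.26 FPKM in pOKSM, so the O and B of the labels are unchecked by these levels.

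Genes that work with these channels were taken from 3 lists. Of 12 tested accessory and related channel genes, 2 rose in iNSC against MEF, Amigo1, a channel-associated membrane protein gene (0.680 FPKM in MEF, 4.73 ± 1.04 in the lines, SD, n = 5), and the pacemaker channel gene Hcn3 (0.0395, 1.65 ± 0.477). Another 2 fell, among them Kcnab1, a beta subunit of Shaker channels (1.09 FPKM, 0.0571 ± 0.0429). Against cNSC and in pBKSM against the clones, 0 of the 12 were called. Kcnip3, which binds Kcnd channels, was 60.4 FPKM in DTA, 40.6 in pBKSM and 38.8 in cNSC, against 10.2 in pOKSM, 9.53 and 4.89 in the clones and 3.15 in MEF. Kcnmb4, the neuronal beta subunit of the Kcnma1 channel, was 78.6 FPKM in DTA and 52.6 in pBKSM, against 17.6 in cNSC, 14.4 in pOKSM, 8.06 and 5.05 in the clones and listed at 0 in MEF. Its pore gene Kcnma1 stayed at or below 0.679 FPKM in the lines, with 3.12 FPKM in cNSC. Kcnip3, Kcnmb4 and Kcnd3 were all lowest in the clones among the 5 lines.

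Of 14 tested potassium pump and cotransporter genes, 1 rose in iNSC against MEF (Atp1b2, the glial sodium pump subunit gene, 0.0219 FPKM in MEF, 58.9 ± 62.8 in the lines, SD, n = 5) and 1 fell (Fxyd5, 63.4 FPKM, 0.0408 ± 0.0913). Against cNSC 0 of the 14 were called. In pBKSM against the clones 3 of the 14 were higher and 0 lower: Fxyd6 (9.30 FPKM, listed at 0 in both clones), the cotransporter gene Slc12a4 (37.3 against 8.83 and 9.22) and Fxyd1 (0.837, listed at 0 in both). Of 8 tested sodium and calcium channel genes, the T-type channel gene Cacna1h rose against MEF (0.00762 FPKM, 8.05 ± 3.34) and Scn8a was higher in pBKSM than in the clones (1.496 FPKM against 0.133 and 0.0933), with 0 lower in either and 0 called against cNSC.

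Markers of differentiated cells moved across the same libraries. Of 8 astrocyte markers, 7 reached 1 FPKM in cNSC and in DTA, 6 in pBKSM, 4 in pOKSM, 3 in clone 1 and 2 in clone 3, and their summed level was 594 FPKM in cNSC, 513 in pBKSM, 492 in DTA, 157 in pOKSM, 131 and 129 in the clones and 25.7 in MEF, with Gjb6 listed at 0 in every library. The markers differed in order: Aqp4 and Slc1a2 were highest in DTA (12.7 and 19.4 FPKM), Gfap, Aldh1l1 and Sox9 in cNSC (374, 5.11 and 35.3 FPKM), and S100b and Aldoc in pBKSM (61.5 and 431 FPKM). Of 8 neuronal markers, 6 reached 1 FPKM in pOKSM and in each clone, 5 in cNSC, 4 in pBKSM and 2 in DTA and MEF. Their summed levels were 204 to 276 FPKM in pOKSM, pBKSM and the clones, 136 in cNSC, 124 in DTA and 13.8 in MEF. Map2 made up most of the neuronal sum in every library but MEF and was highest in pBKSM (259 FPKM), and Snap25 and Stmn2 were listed at 0 in MEF and pBKSM. Rbfox3 and Syt1 were 19.9 and 41.5 FPKM in pOKSM, 29.7 and 43.0 in clone 1 and 26.0 and 46.4 in clone 3. They were lower in pBKSM (1.62 and 9.55), DTA (0.497 and 0.511) and cNSC (0.0692 and 0.321), and Dcx was likewise lower there. Snap25 and Elavl3 were instead highest in cNSC (1.28 and 4.11 FPKM). Of 8 oligodendrocyte lineage markers, 2 to 4 reached 1 FPKM in each library, and they summed to 1490 FPKM in DTA, 1465 in pBKSM, 647 in cNSC, 480 in pOKSM, 185 and 149 in the clones and 118 in MEF, with Mog listed at 0 in all of them. Olig1 and Olig2 made up nearly the whole sum outside MEF (1295 and 193 FPKM in DTA), whereas Pdgfra was 0.902 FPKM in DTA, 8.07 and 8.12 in the clones and 108 in MEF. Of 6 microglia and macrophage markers 1 reached 1 FPKM in each library (summed level 2.47 to 9.68 FPKM). Of 8 smooth muscle and pericyte markers, 4 reached 1 FPKM in cNSC (summed level 64.8 FPKM, with Acta2 at 47.5 FPKM) and in MEF (178 FPKM), and 1 in each line (8.15 to 27.3 FPKM). The part of these markers in the differences between libraries was not tested.

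Some of the genes share their locus with another gene. Of the 23 potassium channel genes named by rule, 9 overlap an annotated gene on the opposite strand. Kcnd3 overlaps Kcnd3os, which was 0.954 FPKM in DTA and 0.864 in cNSC and listed at 0 in MEF. Kcnj3, Kcnk3, Kcnn1, Kcnn2, Kcnq5 and Kcnk1 are among those that overlap others, and whether strand was used in counting is not given in the sources used here. In mm10, Kcnc1 lies on chromosome 7 (46396497 to 46438704), Kcnd3 on chromosome 3 (105452330 to 105674002), Kcnj10 on chromosome 1 (172341210 to 172374085), Kcnj3 on chromosome 2 (55435970 to 55598145), Kcnk3 on chromosome 5 (30588170 to 30625271) and Kcna2 on chromosome 3 (107101146 to 107115005).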

How the data were processed

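RNA sequencing of 7 libraries, each from RNA pooled from 2 to 3 biological replicates, was deposited as 1 table of FPKM values with 24354 rows. The submitters' processing notes name build mm10 and, as tools of the authors, Cuffnorm, Cufflinks 2.2.1, STAR 2.5.2b and R 3.3.2; which tool did what, the annotation and the strand setting: not given in the sources used here. Scaling between libraries hides changes in total RNA per cell.

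All values were used as log2(FPKM + 1), which understates changes of low genes. The 13042 genes that reached 1 FPKM in any library entered a two-sided limma-trend test (limma 3.58.1 in R 4.3.3) with Benjamini-Hochberg adjustment over these genes and a threshold of 0.05. The 3 classes in 1 fit gave 4 residual degrees of freedom, and the 6 label groups gave 1. The spread is that between lines or clones, and a class with 1 library is assumed to vary like the lines. Depth was estimated from low FPKM values of genes with 1 RefSeq transcript, with 200 bases taken from each length; 77.9% to 81.9% of such values lay within 0.1 of a whole number of fragments. Coordinates are from GENCODE M21 (GRCm38, the mm10 assembly) and promoters from RefSeq.

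Genes named are those with at least 5 FPKM in a library and those called in a test. Also named were the 5 largest each way in comparisons of 1 library with 1. Up to 4 called or 2 other genes of each partner list were added. Kcnk2, Kcnn3, Kcnip1, Kcnab3, Kcnd3os, Pou3f4, Pou5f1 and the 4 promoters were chosen with values in view. So were the SOX, POU, E-box, CACCC and RE1 motifs. Counts that name genes list those too. The genes and lists were chosen with earlier results of these data known. Proteins are not used here, and 3 genes are counted but not reported by name or value. The fits were tested on simulated tables, where 43 of 50 genes with a log2 change of 3 were recovered in iNSC against MEF, 45 of 50 against cNSC and 50 of 50 in pBKSM against mcBKSM. At a log2 change of 1 the numbers were 4, 1 and 21 of 50, and 6, 7 and 11 unchanged genes were called. Changes were given only to genes whose mean log2(FPKM + 1) was above that of 5 FPKM. Recovery at the lower levels of most potassium channel genes was not tested. Simulated libraries were drawn independently with the same spread for a gene in every library. The single MEF, cNSC and pBKSM libraries thus varied like the lines or clones by construction, and the recovery does not check that assumption. Alternatives changed the pseudocount, the filter, the normalization, the fold and the libraries included.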

Additional observations from a re-analysis of the deposited data

Results flagged for a closer look

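Among the 29 tested potassium channel genes, 2 had a library far from the other 4 iNSC libraries on the log2(FPKM + 1) scale, by a criterion that chance meets in about 1 in 20 sets of values. That is 6.9% of these genes, against 10.7% of all genes tested. Kcnc4 was 5.63 FPKM in pBKSM, and the next highest line was pOKSM at 0.671 FPKM. Kcnd1 was 1.46 FPKM in DTA, close to the 1.51 FPKM of cNSC, and the next highest line was mcBKSM clone 3 at 0.425 FPKM.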

How the results depend on the processing

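No paired analysis was possible because the labels number only the mcBKSM clones. Of iNSC against MEF, where 4 potassium channel genes were called, the 5 FPKM filter removed all 4 before the test and left 0 called, quantile normalization gave 1, and leaving out 1 iNSC library gave 0 to 4. A pseudocount of 0.1 gave 6, all higher, with Kcnd1 no longer called. Without a filter 4 were called, 2 higher and 2 lower. The 2 higher were Kcnj4 and Kcnn1, while Kcnq5 and Kcnd1 lost their calls, so the 2 lower were other genes. The 2128 calls over all genes became 2232 and 2608 in these 2 fits. Of iNSC against cNSC, where 2 were called, 0 were called with a pseudocount of 0.1 and 6 without a filter, and leaving out 1 iNSC library gave 0 to 3; the 152 calls over all genes became 74 and 673 under these alternatives. In pBKSM against mcBKSM, where 10 were called, the count ran from 8 to 15 over the 5 alternatives, while the count over all genes rose from 759 to 2536 with the 3 BKSM libraries alone. In cNSC against MEF, 19 genes were past the fold, 9 at 4-fold and 8 with 5 FPKM in the higher library. In pBKSM against pOKSM, 9 were past the fold, 14 with a pseudocount of 0.1, 1 at 4-fold and 5 with 5 FPKM in the higher library. Over all alternatives the called genes kept their sign. Calls were lost in 17 of 32 fits for the 4 genes of iNSC against MEF, in 6 of 18 for the 2 genes of iNSC against cNSC and in 8 fits for the 10 genes of pBKSM against mcBKSM. Among those 8, Kcnn2 and Kcnj12 were lost with a pseudocount of 0.1 or without a filter, Kcnd2 without a filter, and Kcnj10 in those fits and with quantile normalization. Leaving out clone 1 or clone 3 left no residual degree of freedom and so only a difference, which kept its sign in each of the 10 genes. The cause of these changes was not tested, other than the smaller number of genes or libraries entered. Depth limits values under about 0.144 FPKM.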
